A study of Rattus norvegicus with 20 samples.

Results

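In the adBNST of the rat, the anterodorsal part of the bed nucleus of the stria terminalis, a forebrain region tied to anxiety, many miRNAs were sequenced with more than one 5′ end. The forms described here are those whose 5′ end differs from the annotated start of the mature miRNA, either by bases gained from the precursor or by bases lost. They were chosen by the 5′ field that the aligner wrote for each sequence, among sequences with no mismatch and no untemplated base added at the 3′ end (called clean reads below), and the reads of all 3′ ends of a form were added. In this way 1407 shifted forms of 493 miRNAs were found, out of 1973 5′ forms of 596 miRNAs, from 3650 distinct sequences. A form is written with its change in brackets, so that miR-124-3p(+T) has gained a T in front and miR-9a-3p(−a) has lost its first a.

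Small RNA was sequenced from tissue punches of 20 Sprague-Dawley rats weaned on postnatal day 21. From then on they lived either singly (socially isolated, SI) or with same-sex littermates, 3 to a cage (group housed, GH), for 6 weeks. They were tested in the elevated plus maze and killed at 9 weeks. Each of the 4 groups (SI and GH, of either sex) had 5 rats, with no drug and no genetic change in any group, and 1 library per rat. The authors picked the sequenced females for high RNA integrity and to cover high, medium and low estradiol. A punch holds neurons, glia and vessels together, so that fewer cells of a type and less RNA per cell cannot be told apart in any value below. Which rats came from one litter is not given in the sources used here.

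A miRNA finds its targets mainly through its seed, bases 2 to 8 from its 5′ end, which pair with messenger RNA. The 5′ end is set when Drosha cuts the primary transcript, for miRNAs of the 5′ arm of the hairpin, or when Dicer cuts the precursor, for those of the 3′ arm. A cut that falls a base earlier or later leaves the rest of the molecule nearly unchanged but moves the seed, so that a 5′ isomiR can pair with other targets. Changes at the 3′ end leave the seed in place. Variants of the 5′ end are known for several miRNAs that are abundant in brain, miR-124 and miR-9 among them.

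The most read sequence of the leading forms is shown first, each above the most read unshifted sequence of the same miRNA, because the change of seed is the property they share. Capitals mark bases 2 to 8 of each molecule, and the sequences are written 5′ to 3′ as DNA letters, as deposited.
miR-124-3p(+T): tTAAGGCAcgcggtgaatgc
miR-124-3p unshifted: tAAGGCACgcggtgaatgc
miR-9a-3p(−a): tAAAGCTAgataaccgaaagta
miR-9a-3p unshifted: aTAAAGCTagataaccgaaagt
miR-9a-5p(−t): cTTTGGTTatctagctgtatga
miR-9a-5p unshifted: tCTTTGGTtatctagctgtatga
miR-323-3p(+G): gCACATTAcacggtcgacctct
miR-323-3p unshifted: cACATTACacggtcgacctct
miR-29a-3p(+C): cTAGCACCatctgaaatcggtt
miR-29a-3p unshifted: tAGCACCAtctgaaatcggtt
miR-101a-3p(+G): gTACAGTActgtgataactga
miR-101a-3p unshifted: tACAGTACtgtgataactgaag
miR-101b-3p(+G): gTACAGTActgtgatagctga
miR-101b-3p unshifted: tACAGTACtgtgatagctgaag
miR-409a-3p(+G): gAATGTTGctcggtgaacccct
miR-409a-3p unshifted: aATGTTGCtcggtgaacccct
miR-346(+C): cTGTCTGCctgagtgcctgcctct
miR-346 unshifted: tGTCTGCCtgagtgcctgcctct

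Libraries held 3436585 to 11406397 miRNA reads, of which 81.6% to 83.8% were clean, and GH libraries tended to be shallower. The group medians were 4125285 and 4318194 clean reads in GH males and females, against 5985990 and 5821109 in SI males and females. Reads that matched several miRNAs were 0.0654% to 0.266% of clean reads. The library of SI female 16 stood apart, with 268 of the 560 forms tested below at 0 reads, the most of any library. Forms at 0 were also more frequent in SI libraries in general, though these were the deeper. The means were 96.2 in GH males and 141 in SI males, and 74.4 in GH females and 178 in SI females. The ranges overlapped in each sex, and the cause was not tested. The label and the name of the deposited table give opposite sexes for SI male 17 and SI female 17; both were placed by their labels, and results that changed on exchanging them are given. Markers of neurons (4 of 4 read in every library) summed to 34769 to 86709 reads in 1000000 miRNA reads of any form. Those of oligodendrocytes (1 of 3 read in every library) ranged from 2289 to 5876, of choroid plexus and epithelium (3 of 7) from 795 to 16849, and of microglia and leukocytes (1 of 4) from 427 to 1261.

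Shifted forms held 3.66% to 6.50% of the clean reads of a library, with a median of 5.24%. Most of them were out by a single base. Of the shifted reads, 48.1% to 58.7% had lost 1 base and 30.5% to 43.0% had gained 1, whereas 4.94% to 6.52% had lost 2 and 2.67% to 7.13% had gained 2. Shifts of 3 bases were rare, with 0.511% to 1.19% of shifted reads for a loss and 0.124% to 0.479% for a gain. By number of forms, 422, 286 and 189 had lost 1, 2 and 3 bases, and 340, 117 and 53 had gained 1, 2 and 3. Few of these were read everywhere: 183 forms were listed in all 20 libraries and 334 in a single library. The 3 most read forms held 37.3% of all shifted reads, and the 12 most read held 54.7%.

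The arm of the hairpin and the shift went together. Of the clean reads of 3p miRNAs, 10.3% to 15.9% per library were shifted (median 13.2%), against 1.87% to 2.82% (median 2.54%) of those of 5p miRNAs, so that the ranges over the 20 libraries did not overlap. The direction also differed between the arms. Among shifted reads of the 5p arm, 78.7% to 88.5% had lost bases, against 36.0% to 48.5% on the 3p arm, where gains were the more common change in every library. These shares count reads, so that single forms weigh heavily in them. On the 3p arm, the gained form miR-124-3p(+T) alone held 9.43% to 22.5% of all shifted reads. The lost form miR-9a-3p(−a) held 2.21% to 17.4%. The direction without them was not examined. The first base differed as well. Unshifted clean reads began with T, the base that Argonaute proteins favour at that place, in 77.7% to 82.4%, and shifted reads in 31.2% to 50.3%. Shifted reads began more often with G (18.5% to 31.4% against 0.765% to 1.10%) and with C (18.5% to 23.1% against 4.75% to 7.22%), while A differed less (12.8% to 17.9% against 10.8% to 16.3%).

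Shifting was uneven between miRNAs. Among the 115 miRNAs with at least 1000 clean reads in every library, the median shifted share was 2.15% (interquartile range 1.41% to 6.26%), from 0.619% for miR-218a-5p to 88.0% for miR-505-3p. Of these, 56 were below 2% and 22 above 10%, 14 of them above 20% and 7 above 50%. The 53 5p miRNAs had a median of 1.63% with 5 above 10%, and the 52 3p miRNAs a median of 4.03% with 16 above 10%. By the positions in RefSeq (rat assembly GRCr8), 26 of the 115 lie on chromosome 6, which carries the imprinted Dlk1-Dio3 miRNA cluster. Their median was 7.81%, with 11 above 10%, against 1.73% and 9 for the 75 on other chromosomes. The other 14, miR-124-3p and miR-383-5p among them, had no position there, with a median of 2.46% and 2 above 10%. These counts are descriptions, because neighbouring miRNAs are cut from shared transcripts.

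The most read shifted form was miR-124-3p(+T), of a miRNA known as a marker of neurons. Its mean share of the clean reads of miR-124-3p was 44.9% ± 2.73 (SD, n = 20), between 38.8% and 49.6%, or 9050 RPM, which are reads in 1000000 clean reads of the library. Second came miR-9a-3p(−a), with 29.9% ± 1.92 of its miRNA and 6563 RPM. The other strand of the same hairpin, miR-9a-5p, known from neural progenitors, lost its first t in 5.36% ± 0.483 of reads and its first 2 bases in 1.09% ± 0.145, which at its high level still came to 4212 and 865 RPM. Such frequent reads at low shares were also seen for miR-26a-5p(−t), with 1.58% ± 0.149 and 995 RPM, and for miR-7a-5p(−t), with 1.33% ± 0.151 and 758 RPM. Thus the leading forms were of different kinds, some being large parts of their miRNA and others small parts of very abundant ones.

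Several miRNAs of the chromosome 6 cluster were read in large part from a shifted start. In miR-409a-3p, a gained G made up 54.4% ± 3.91 of clean reads and a gained CG a further 17.2% ± 1.89. miR-323-3p(+G) held 31.8% ± 2.42 of its miRNA, miR-411-5p(+A) 45.5% ± 5.53, miR-770-3p(+C) 54.3% ± 4.16, and miR-485-3p(+GT) 16.9% ± 3.25. Losses occurred in the same cluster. miR-136-3p(−c) held 50.9% ± 6.68, next to 10.4% ± 4.35 that had lost ca and 1.92% that had lost cat, and miR-379-3p(−c) held 99.0% ± 1.23. The sequences below show that a gain and a loss of 1 base move the seed in opposite directions.
miR-411-5p(+A): aTAGTAGAccgtatagcgtacg
miR-411-5p unshifted: tAGTAGACcgtatagcgtacg
miR-409a-3p(+CG): cGAATGTTgctcggtgaacccct
miR-136-3p(−c): aTCATCGTctcaaatgagtct
miR-136-3p unshifted: cATCATCGtctcaaatgagtct
miR-485-3p(+GT): gTCATACAcggctctcctctct
miR-485-3p unshifted: cATACACGgctctcctctcttc

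Elsewhere, miR-505-3p(+C) had the highest share of any form whose miRNA had 1000 clean reads everywhere, with 82.9% ± 3.70 and a lowest library of 77.4%. It was followed by miR-330-3p(−g) at 70.8% ± 4.02, miR-383-5p(−c) at 63.4% ± 8.50, miR-6331(−c) at 55.6% ± 2.95 and miR-760-3p(+T) at 51.4% ± 2.54. Gains and losses were thus both found among the leading forms. For miR-873-5p, with fewer reads, a gained T held 82.5% ± 5.56. In all, 23 of the 560 tested forms held more than 50% of their miRNA on average, 7 of them in each of the 20 libraries. These shares are of clean reads. With tailed reads counted too, miR-505-3p(+C), miR-330-3p(−g), miR-383-5p(−c) and miR-6331(−c) held 82.3%, 73.3%, 56.7% and 60.6%, whereas miR-760-3p(+T) held 41.0%.
miR-505-3p(+C): cGTCAACActtgctggtttcctct
miR-505-3p unshifted: gTCAACACttgctggtttcctct
miR-330-3p(−g): cAAAGCACagggcctgcagaga
miR-330-3p unshifted: gCAAAGCAcagggcctgcagaga
miR-383-5p(−c): aGATCAGAaggtgactgtggct
miR-383-5p unshifted: cAGATCAGaaggtgactgtggct
miR-873-5p(+T): tGCAGGAActtgtgagtctcc
miR-873-5p unshifted: gCAGGAACttgtgagtctcc

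The miR-101 pair, known for pairing with the messenger RNA of the histone methyltransferase Ezh2, had the same gained base. miR-101a-3p(+G) held 68.5% ± 7.37 of clean reads, and miR-101b-3p(+G) 46.8% ± 11.1. Tails set shifted and unshifted forms apart in miR-101a-3p. In miR-101b-3p they did not, with 23.9% of unshifted reads tailed against 23.1% of miR-101b-3p(+G). Of all mismatch-free reads of unshifted miR-101a-3p, 46.3% carried an untemplated 3′ tail, against 13.2% of miR-101a-3p(+G), so that the share of the shifted form was 57.5% when tailed reads were counted too. For miR-29a-3p, known for pairing with collagen messages, the gained C held 18.5% ± 2.30. For miR-140-3p, read from an intron of Wwp2, loss of the first t held 47.1% ± 3.67, and for miR-126a-3p, a miRNA of endothelial cells, it held 11.4% ± 3.99.

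A shifted form can carry the seed of another miRNA. Of the 560 tested forms, 46 (8.21%) had the same bases 2 to 8 as a rat mature miRNA of another name in RefSeq, a table of 693 names and 585 distinct seeds in which 542 of the 596 miRNAs were found. The largest such group was the let-7 family, whose members are abundant in brain. With the first base lost, 7 let-7 miRNAs and miR-98-5p had the seed of miR-196, a family known for pairing with Hox messages. Each of these 8 forms held a small part of its miRNA, from 0.742% for let-7a-5p(−t) to 1.51% for let-7d-5p(−a) on average. Together they gave 1913 to 4249 RPM (median 2568), whereas the clean reads of miR-196 itself came to between 0 and 4.41 RPM with a median of 0. The RefSeq sequence of miR-196a-5p is printed in RNA letters.
let-7c-5p(−t): gAGGTAGTaggttgtatggtt
let-7c-5p unshifted: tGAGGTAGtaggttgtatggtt
let-7d-5p(−a): gAGGTAGTaggttgcatagtt
miR-196a-5p (RefSeq): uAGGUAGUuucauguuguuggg

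In other cases the miRNA that owns the seed was itself read in every library. miR-128-3p(+C), from a miRNA of neurons, had the seed of miR-27a-3p and miR-27b-3p. It held only 0.288% ± 0.0425 of miR-128-3p, which was 106 RPM, within the range of miR-27a-3p (34.3 to 471) and below that of miR-27b-3p (1075 to 6346). miR-379-3p(−c), at 162 RPM, had the seed of miR-411-3p, a neighbour in the cluster with 315 to 1163. These matches are descriptions of the letters alone, and no pairing with a target was measured.
miR-128-3p(+C): cTCACAGTgaaccggtctcttt
miR-27a-3p (RefSeq): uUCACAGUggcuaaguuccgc
miR-379-3p(−c): tATGTAACatggtccactaac
miR-411-3p (RefSeq): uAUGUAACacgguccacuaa

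In the median form the 3′ end lay close to that of the unshifted form, though most gained forms ended somewhat earlier. Among 44 gained forms with at least 20 reads in every library, the median length was 0.896 bases more than that of the unshifted form, and the 3′ end lay 0.186 bases nearer to the start, with 36 of 44 having the shorter 3′ end. Among 85 lost forms the length was 0.977 bases less and the 3′ end differed by 0.0490 bases, 18 being shorter there. Untemplated tails were found on a median of 8.55% of reads of gained forms, against 10.4% of their unshifted forms, and lower in 28 of 44. For lost forms the medians were 14.6% and 11.7%, lower in 32 of 85. Single forms departed from this by far more. miR-9a-3p(−a) was tailed in 17.8% of reads against 3.93% of the unshifted form, miR-384-3p(−a) in 30.8% against 1.39%, and miR-485-3p(+GT) in 23.2% against 5.47%, whereas miR-760-3p(+T) was tailed in 50.9% against 67.1%.

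Whether adolescent isolation, in either sex, went with a different amount of 5′ shifting was examined first for all miRNAs together. In GH males, 5.06%, 5.82%, 5.73%, 6.03% and 6.26% of clean reads were shifted, a mean of 5.78% ± 0.451 (SD, n = 5). SI males had 4.84%, 4.47%, 4.34%, 4.53% and 5.20%, a mean of 4.68% ± 0.343, or 1.11 percentage points less, and only the highest SI male lay within the GH range. The two-sided exact permutation test gave p = 0.0159, where 0.0079 is the smallest value possible, and 0.0952 after Benjamini-Hochberg adjustment over the 6 tests made. When each miRNA was held at its mean share of the reads over the libraries, which was done after seeing the data, the difference in males was 0.0410 percentage points in the other direction (exact permutation p = 0.532). miR-124-3p, the miRNA with the most shifted reads, made up 1.65% to 2.88% of clean reads in GH males and 1.08% to 1.79% in SI males.

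In females 6.13%, 4.85%, 4.81%, 6.50% and 6.02% of clean reads were shifted in GH rats, and 6.30%, 5.28%, 5.51%, 3.66% and 4.47% in SI rats. The groups overlapped widely, with means of 5.66% ± 0.781 and 5.04% ± 1.01 (n = 5 each, exact permutation p = 0.302, adjusted 0.603). GH females and GH males differed by 0.120 percentage points, the females being lower (exact permutation p = 0.810, adjusted 0.944). With each miRNA at its mean share of the reads, SI females were 0.101 percentage points higher than GH females (5.33% ± 0.0887 against 5.23% ± 0.0368, n = 5 each, exact permutation p = 0.0159), and the difference of GH females from GH males was −0.0726 percentage points (exact permutation p = 0.0159), both unadjusted. The median shifted share over the 115 well-read miRNAs was 2.37% ± 0.165 in SI males and 2.17% ± 0.154 in GH males (n = 5 each, exact permutation p = 0.0873, adjusted 0.262). It was 2.21% ± 0.192 in SI females and 2.18% ± 0.147 in GH females (n = 5 each, exact permutation p = 0.770, adjusted 0.944). That difference of 0.0315 percentage points was 0.243 when only sequences with at least 10 reads were counted (exact permutation p = 0.0714) and 0.141 with tailed reads (exact permutation p = 0.262), both unadjusted.

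The share of each form within its own miRNA was then tested by edgeR's quasi-likelihood method, with the clean reads of the miRNA as offset, for 560 forms of 241 miRNAs. The 560 had at least 10 reads in at least 5 libraries and a miRNA with at least 20 clean reads everywhere, and they held 98.8% of shifted reads. In males 1 form was called between SI and GH (0.179% of those tested), and 29 had an unadjusted p under 0.05. This form was miR-346(+C), of a miRNA encoded in an intron of the glutamate receptor gene Grid1. Its share was 4.63%, 4.98%, 3.30%, 1.52% and 3.55% in GH males and 7.85%, 10.4%, 4.23%, 11.8% and 13.03% in SI males. Except for 1 SI male that lay within the GH range, SI males were higher. The log2 fold change of the share was 1.40 ± 0.29 (SE, edgeR adjusted p = 0.0320).

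In females the share of miR-346(+C) was 7.17%, 8.40%, 6.77%, 4.28% and 6.29% in GH rats and 4.80%, 5.01%, 6.68%, 7.99% and 8.41% in SI rats. These groups overlapped almost wholly, with means of 6.58% ± 1.51 and 6.58% ± 1.65 (n = 5 each). The test of whether the effect of isolation differed between the sexes gave a log2 difference of −1.40 ± 0.40 (SE, unadjusted p = 0.00189, edgeR adjusted p = 0.378), so that it did not pass. GH females had a higher mean than GH males (3.60% ± 1.36, n = 5), with a log2 fold change of 0.88 ± 0.29 that did not pass either. The call in males was lost in 6 of the 10 repeats that left out 1 rat, without GH male 19, 20 or 21 or without SI male 17, 20 or 22, with log2 fold changes of 1.20 to 1.58. On exchanging the rats numbered 17 it was lost as well.

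No form was called in females (0% of 560, edgeR), where 48 had an unadjusted p under 0.05, limma called 0 and DESeq2 called 8. The lowest p belonged to miR-124-3p(+T), at 45.0%, 43.6%, 43.7%, 38.8% and 39.2% in GH females and 45.7%, 47.4%, 47.0%, 49.6% and 45.0% in SI females. Only the highest GH female lay within the range of the SI females, just above the lowest of them. The log2 fold change was 0.16 ± 0.04 (SE, edgeR adjusted p = 0.290), and DESeq2, which uses the same counts, gave an adjusted p of 0.0488. In males the shares were 44.9%, 44.9%, 43.4%, 44.5% and 44.7% in GH and 49.0%, 46.1%, 42.9%, 48.2% and 45.0% in SI rats, where the SI values surrounded the GH values.

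Next was miR-485-3p(+GT), with 17.9%, 21.3%, 17.1%, 25.02% and 17.4% in GH females and 18.3%, 12.4%, 13.8%, 12.96% and 13.9% in SI females. All SI females but rat 10 lay below the GH range. The log2 fold change was −0.47 ± 0.13 (SE, edgeR adjusted p = 0.290). Without SI female 10 the fit for females called 1 form. The sex by housing test called 0 of 560 (0%, edgeR), with 40 at an unadjusted p under 0.05 and none called by DESeq2 or limma. Its lowest p was that of miR-384-3p(−a), with a log2 difference of −1.08 ± 0.31 (SE, edgeR adjusted p = 0.378).

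The shares of miR-384-3p(−a) were 3.16%, 5.19%, 3.77%, 3.79% and 4.66% in GH males and 5.47%, 6.19%, 5.13%, 5.36% and 7.02% in SI males. In females they were 6.19%, 5.75%, 8.58%, 6.24% and 4.82% in GH rats and 5.78%, 3.17%, 4.97%, 3.77% and 3.42% in SI rats. SI rats were thus mostly above GH rats among males and mostly below them among females, by amounts that did not pass the test. Between GH females and GH males no share was called (0% of 560, edgeR), 6 had an unadjusted p under 0.05, and DESeq2 and limma called none.

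The miR-101 forms had lower means in SI rats of both sexes, by amounts that did not pass the adjusted test. miR-101b-3p(+G) held 53.8%, 54.5%, 53.0%, 51.2% and 49.5% in GH males and 32.8%, 29.3%, 38.5%, 38.7% and 45.8% in SI males. In females it held 54.8%, 53.0%, 58.1%, 58.1% and 57.7% in GH rats and 52.5%, 38.5%, 51.7%, 16.3% and 48.4% in SI rats. For miR-101b-3p(+G) the groups did not overlap in either sex. The log2 fold change was −0.50 ± 0.19 in males and −0.44 ± 0.18 in females (SE, edgeR adjusted p = 0.610 and 0.473), and −0.24 ± 0.11 in females without SI female 16, which had the lowest value. For miR-101a-3p(+G) only the males were apart. It held 71.0%, 72.2%, 74.1%, 71.3% and 71.7% in GH males and 64.5%, 69.2%, 66.2%, 60.9% and 66.3% in SI males, without overlap, with a log2 fold change of −0.14 ± 0.09 (SE, edgeR adjusted p = 0.995). In females it held 72.9%, 71.8%, 69.0%, 75.1% and 77.4% in GH rats and 72.1%, 69.6%, 65.9%, 42.1% and 66.1% in SI rats, and these overlapped. The female log2 fold change was −0.21 ± 0.09 (SE, edgeR adjusted p = 0.484), and −0.10 ± 0.05 without SI female 16. These forms were looked at after their values were seen.

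The forms with many reads allowed closer limits on the differences, for these forms only. Asking for many reads in every library leaves out forms that fell to few reads in 1 group. A share that is already large also has little room to rise, so that part of the limit was set beforehand. Of 87 forms with at least 100 reads in every library, the log2 fold changes lay between −0.62 and 0.73 in males and between −0.57 and 0.91 in females, with a median SE of 0.140 in males. The 95% interval of the difference lay within 1 log2 unit on either side of 0 for 84 of the 87 in males and 83 in females, and for 87 when GH females were set against GH males. For the difference between the sexes in the effect of isolation, values ran from −0.84 to 0.98 and 74 of the 87 intervals lay within that limit. At an unadjusted p under 0.05 there were 8 of the 87 in males, 16 in females, 7 for the sex by housing test and 0 between the sexes under GH. miR-9a-3p(−a), for example, lay at 28.5%, 29.4%, 29.3%, 30.2% and 32.4% in GH males and at 28.7%, 32.5%, 29.7%, 32.0% and 30.5% in SI males.

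The level of the forms, as against their share, was tested with all 5′ forms in 1 fit by edgeR with TMM normalization. In males 10 of 622 shifted forms were called between SI and GH, 2 higher and 8 lower (1.61%), where 28 of all 1061 5′ forms were called (2.64%), among them 18 of 439 unshifted forms. Of the 8 lower forms, miR-411-5p(+A), miR-136-3p(−c), miR-127-5p(−ct) and miR-434-5p(−a) belong to miRNAs of the chromosome 6 cluster. For these 4 the unshifted form was called lower as well, with log2 fold changes of −1.68, −1.63, −1.53 and −1.08, next to −1.51, −1.58, −1.16 and −1.34 for the shifted forms. Their shares had log2 fold changes between −0.25 and 0.15.

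miR-411-5p(+A) was read at 1169, 1095, 923, 848 and 936 RPM in GH males and at 250, 230, 351, 327 and 505 in SI males. The groups did not overlap, and the fold was −1.51 ± 0.42 on the log2 scale (SE, edgeR adjusted p = 0.0465), a call that was lost whichever of the 10 males was left out. Its share of the miRNA was 42.3%, 47.4%, 45.9%, 48.8% and 45.9% in the same GH males and 47.6%, 50.3%, 51.5%, 52.3% and 45.8% in the SI males, so that the form and its miRNA were lower by about the same amount. In females the levels were 1224, 795, 1390, 1536 and 1106 RPM in GH rats and 1248, 627, 707, 70.0 and 224 in SI rats, overlapping through SI female 10, and the log2 fold change of −0.99 ± 0.41 did not pass (edgeR adjusted p = 0.213). For miR-136-3p(−c) the males were at 1183, 1022, 678, 821 and 708 RPM in GH and 270, 208, 308, 270 and 351 in SI, with no overlap.

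Outside the cluster, miR-873-5p(+T) had 186, 246, 281, 200 and 298 RPM in GH males and 37.7, 107, 85.0, 66.5 and 116 in SI males, with no overlap. The log2 fold change was −1.50 ± 0.35 (SE, edgeR adjusted p = 0.0230), beside −0.05 for the share. miR-29a-3p(+C) was lower by 1.21 ± 0.33 on the log2 scale (SE, edgeR adjusted p = 0.0465), beside −0.08 for its share. For miR-29b-3p(−t), 41, 9, 16, 41 and 9 reads were found in GH males and none were listed in any SI male, in SI female 16 or in SI female 17. As sequences read only once are not in the tables, no fold is given for it.

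miR-490-3p(+C) was likewise listed in every GH rat and in no SI rat. It therefore passed the filter of at least 10 reads in at least 5 libraries only through GH rats. Its call in males and its low p in females add no support beyond these counts. It had 45, 37, 20, 17 and 12 clean reads in GH males and 28, 20, 37, 27 and 40 in GH females. The miRNA itself was read less often in SI rats, with 100 to 182 clean reads in GH males against 25 to 174 in SI males. When reads with 3′ tails were counted, the form was found in 4 of the 10 SI rats, with 44, 12 and 40 reads in SI males 15, 19 and 20 and 45 in SI female 12, and the call in males was lost (edgeR adjusted p = 0.908). In females it did not pass without tails either (edgeR adjusted p = 0.0575).
miR-490-3p(+C): cCAACCTGgaggactccatgct
miR-490-3p unshifted: cAACCTGGaggactccatgctg

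Both forms called higher in SI males were of miRNAs whose unshifted form had a positive fold change too. miR-346(+C) had 55.3, 57.9, 34.8, 15.3 and 36.3 RPM in GH males and 116, 231, 43.2, 129 and 191 in SI males, overlapping through SI male 19. Its log2 fold change was 1.89 ± 0.43 (SE, edgeR adjusted p = 0.0230), while that of the unshifted form was 0.36 ± 0.20 (adjusted p = 0.438). miR-378a-3p(−a), from an intron of Ppargc1b, had 22.5, 20.5, 27.4, 26.4 and 38.6 RPM in GH males and 74.5, 64.3, 52.4, 96.0 and 68.5 in SI males, with no overlap. It rose by 1.46 ± 0.36 (SE, edgeR adjusted p = 0.0230) and its unshifted form by 0.96 ± 0.23 (adjusted p = 0.0230), with 0.53 ± 0.26 for the share.

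In females none of the 622 shifted forms was called by edgeR, where 2 of the 1061 5′ forms were (0.189%), with 61 shifted forms at an unadjusted p under 0.05, while DESeq2 called 18 shifted forms. Without SI female 10 edgeR called 20. After miR-490-3p(+C), the lowest p was that of let-7d-5p(−a), whose seed is that of miR-196 as shown above. It had 229, 253, 242, 223 and 205 RPM in GH females and 233, 347, 337, 610 and 489 in SI females. Apart from SI female 10, SI females were higher, with a log2 fold change of 0.93 ± 0.24 (SE, edgeR adjusted p = 0.0838). In males its levels were 225, 278, 335, 238 and 248 RPM in GH and 386, 425, 513, 355 and 294 in SI rats. The unshifted let-7d-5p was higher in SI rats too, by 0.58 ± 0.22 in females and 0.54 ± 0.22 in males (log2, SE). For the share of let-7d-5p(−a) the log2 fold changes were 0.31 ± 0.10 in females and 0.09 ± 0.10 in males (SE). Neither share passed (edgeR adjusted p = 0.290 and 0.995).

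Other values moved with the levels in males. Markers of the vessel wall (3 of 3 read in every library) summed to 10447 to 17193 reads in 1000000 miRNA reads in GH males and to 4331 to 6845 in SI males, and to 13185 to 26287 and 1771 to 15301 in GH and SI females. Markers of blood (1 of 3 read in every library) summed to between 1050 and 1399 in GH males and between 1354 and 3146 in SI males. In females they summed to between 954 and 1440 in GH rats and between 1396 and 3354 in SI rats. The part of either in the levels was not tested. All 10 level calls in males kept their sign in the 10 repeats that left out 1 rat, but none was called in all of them. miR-346(+C) was called in 6 of the 10, miR-873-5p(+T) and miR-490-3p(+C) in 5, miR-378a-3p(−a) in 4, miR-127-5p(−ct) and miR-29b-3p(−t) in 3, miR-434-5p(−a) in 2 and miR-136-3p(−c) in 1. miR-411-5p(+A) and miR-29a-3p(+C) were called in 0 of the 10. With the rats numbered 17 exchanged, 5 forms were called.

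Lists of miRNAs were read beside all forms. Of 20 miRNAs for which 5′ variants have been described, 19 had clean reads, and 33 forms of 12 of them were tested. None of the 33 was called for its share in any comparison by edgeR, with 2 in males and 6 in females at an unadjusted p under 0.05, and 1 of 37 was called for its level in males, miR-411-5p(+A), beside 10 of 622 (1.61%) of all shifted forms. The 7 of them with at least 1000 clean reads in every library had a median shifted share of 6.62%, 3 being above 10%. Of 30 brain-enriched miRNAs, 77 forms of 29 were tested, with 0 share calls by edgeR, 5 in males and 7 in females at an unadjusted p under 0.05, and 4 of 79 called lower for their level in males, beside 8 of 622 shifted forms in all. These 4 were miR-873-5p(+T), miR-136-3p(−c), miR-29a-3p(+C) and miR-29b-3p(−t). The lists were drawn up with earlier results of these data known. The paper had listed miR-873-5p, miR-136-3p and miR-29a-3p as lower in SI males among these same rats. The counts are therefore descriptions, and no more frequent change of listed miRNAs can be read from them. Among the 14 well-read members the median shifted share was 2.43%, with 4 above 10%, next to the 2.15% over all 115 miRNAs. In the first list, miR-183-5p(−t) held 23.6% ± 16.4 of a miRNA with few reads, and was not listed in 3 SI males and in SI female 16.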

How the data were processed

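Small RNA libraries (215 ng RNA, 22 PCR cycles) of 20 rats were analysed from the deposited tables, 1 per rat. The authors trimmed reads with cutadapt and aligned them with seqbuster to rat miRBase v21 in bcbio-nextgen, with FastQC, STAR on rn6 and DESeq2 named as well; versions are not given in the sources used here. The deposited values are whole-number read counts per distinct sequence, per the file headers with the miRNA, mismatch, tail, and 5′ and 3′ offset. The lowest count listed was 2.

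Clean reads were summed per form. The 5′ field matched the neighbouring bases in 23079 of 23079 rows that could be compared. Reads were counted without molecular identifiers. The SEs and intervals were computed from the fold change and F statistic of the edgeR fits. Like the p-values, they measure the spread between rats, which were taken as independent. Which GH rats shared a cage is not given in the sources used here. In 20 tested forms over 10% of reads matched several miRNAs. No libraries were duplicates (lowest chi-square per degree of freedom 40.3 over 190 pairs).

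Shares were tested with edgeR 4.0.16 in R 4.3.3 (glmQLFit and glmQLFTest, all 20 libraries, offset the log of the miRNA's clean reads), levels with TMM normalization, both with Benjamini-Hochberg adjustment over all forms tested and a threshold of 0.05. DESeq2 1.42.0 and limma 3.58.1 (log2 odds, 0.5 added) were alternatives. Totals were compared by exact permutation over 252 assignments with scipy 1.17.1. The fits were tested on data simulated with known changes in SI males. The share fit called 16 of 67 forms changed 2-fold and 18 of 66 changed 4-fold. Among forms with at least 100 reads in every library it called 9 of 9 and 6 of 6. The level fit called 8 of 67 and 26 of 66, and 6 of 21 and 17 of 17 among such forms. Of unchanged forms, 2 of 360 and 0 of 861 were called.

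Forms named were the 12 most read, the 12 of highest share among miRNAs with 1000 clean reads in every library, those called or lowest in p in each comparison, all tested forms of miR-760-3p, miR-101a-3p, miR-136-3p and miR-873-5p, which the study chose on these samples, and forms of at least 5% in the list of described variants. miR-101b-3p was compared between groups after its values were seen. Members and lists were chosen with earlier results of these data known. Seeds were compared with RefSeq (GRCr8).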

Additional observations from a re-analysis of the deposited data

Results flagged for a closer look

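Each group of 5 rats was examined for 1 rat far from the others, in the shares of 28 forms and in the total and median shifted shares, and 11 of 120 groups had one, where chance gives about 1 in 20. SI female 16, whose library stood apart, accounted for 2 of them. Its share of miR-101a-3p(+G) was 42.1%, where the other SI females had 65.9% to 72.1%, and its share of miR-136-3p(−ca) was 24.5%, where they had 6.44% to 9.19%.

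Among GH females, rat 12 had 51.2% of miR-409a-3p(+G) against 56.1% to 57.4% and 1.33% of miR-7a-5p(−t) against 1.19% to 1.23%. GH female 15 had 63.2% of miR-770-3p(+C) against 55.6% to 56.9% and 11.7% of miR-378a-3p(−a) against 4.40% to 5.66%. GH female 13 had 54.3% of miR-760-3p(+T) against 49.7% to 50.3%.

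In GH males, rat 18 had 46.0% of miR-760-3p(+T) where the others had 51.3% to 52.6%, and rat 21 had 6.59% of miR-378a-3p(−a) where the others had 3.96% to 4.59%. In SI females, rat 14 had 19.3% of miR-29a-3p(+C) against 21.4% to 21.9%, and rat 10 had 18.3% of miR-485-3p(+GT) against 12.4% to 13.9%. The high value of rat 10 lay within the GH female range for miR-485-3p(+GT), and the call count in females was 1 without that rat.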

How the results depend on the processing

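For shares in males, the 1 call became 3 by DESeq2 and 0 by limma, with only the groups compared, with tailed reads counted or with the rats numbered 17 exchanged. For females the count of 0 became 8 by DESeq2 and 4 with no filter on the form, which also gave 4 for the sex by housing test. For levels in males, the count of 10 became 22 by DESeq2, 25 with only the groups compared and 5 with the exchange. For levels in females, 0 became 18 by DESeq2 and 10 either with no count filter or with at least 10 reads in every library. Leaving out 1 rat gave 0 to 1 share calls in males, in females and for the sex by housing test, the 1 in the latter cases without SI female 10, 0 between GH females and GH males, and for levels 0 to 8 in males (0 without GH male 16 or 19 or SI male 15 or 20) and 0 to 20 in females.

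Deviations of same-numbered SI and GH rats did not correlate (−0.055 to 0.039), and the numbers were not used as a block in the main fits. The labels do not say whether equal numbers mark a shared litter, batch or day. With the replicate block, on the rats of shared numbers, levels in males gave 0 calls, and so did the same rats without the block. Shares in males gave 0 in both as well.

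Holding each miRNA at its mean share of the reads, chosen after seeing the data, turned the total difference to 0.0410 in males and 0.101 in females and brought that between GH females and GH males to −0.0726. Leaving out 1 rat gave −1.29 to −0.985, −0.933 to −0.273 and −0.329 to 0.0924. The median difference between GH females and GH males of 0.00823 turned to −0.0330 with reads of a single miRNA, −0.108 with sequences of at least 10 reads, −0.0103 at equal depth and −0.130 with tailed reads. Leaving out 1 rat gave median differences of 0.139 to 0.242 in males, −0.0377 to 0.0928 in females and −0.0530 to 0.0443 between the GH groups. Where no cause is given it was not tested. In the 18 tests of single forms that were repeated under the alternatives, none changed direction. The adjusted p of miR-346(+C) for its share in males ranged from 0.000175 to 0.190. Depth limits forms with few reads, and GH libraries were the shallower, yet SI libraries had more tested forms at 0 reads on average.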

Other observations

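Forms that held most of a miRNA were also found among less abundant molecules, several from the less used strand of their hairpin, and these were picked out after their values were seen. miR-138-1-3p(−cg), the partner of the neuronal miR-138-5p, held 97.4% ± 3.77 (SD, n = 20) of its clean reads at 67.7 RPM (reads in 1000000 clean reads). miR-504(−a) held 95.7% ± 2.50 at 235 RPM, its lowest library having 91.2%. miR-7a-1-3p(−a) held 81.2% ± 17.2, miR-145-3p(−gg) 58.8% ± 16.5 and miR-29b-5p(−c) 57.1% ± 21.8, of miRNAs with as few as 30, 161 and 74 clean reads in a library. Gains led in miR-361-3p(+T), with 54.0% ± 6.04, and in miR-187-3p(+C), with 56.2% ± 12.9.

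miR-342-3p(−tc), a loss of 2 bases, held 11.6% ± 1.65 of its miRNA, from 8.86% to 15.3%, and came to 278 RPM. Its bases 2 to 8 were those of miR-672-3p in RefSeq. Its most read sequence is shown above that of the unshifted form, with those bases in capitals.
miR-342-3p(−tc): tCACACAGaaatcgcacccgtca
miR-342-3p unshifted: tCTCACACagaaatcgcacccgtc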
